A study of Oryza sativa with 24 samples.

Results

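GF14 is the rice name for the 14-3-3 proteins, and the data were searched for 8 named forms, GF14A to GF14H. A form was taken where the array annotation assigns a probe set to 1 rice gene whose RefSeq symbol or synonym is that name, with hyphens and case ignored. This found 7 probe sets for 7 forms, out of 57258 probe sets without array controls and 17905 genes that have a probe set of their own. No RefSeq record used here carries the name GF14H, and that form is not analysed here. The identity of GF14E needs caution, because its protein-coding record also carries the name GID2, an F-box protein of gibberellin signalling, and a separate non-coding record named GF14E has no probe set on the array. The record of GF14F also carries the synonym OsGF14a, so the letter in older names may not be the letter used here.

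Transcripts were measured in developing and germinated pollen of the japonica rice cultivar Zhonghua 10 and in 3 sporophytic tissues, with 3 Affymetrix Rice Genome Arrays in each of 8 groups. The pollen groups were uninucleate microspores (UNMs), which have left the tetrad, bicellular pollen (BCP), immature tricellular pollen (TCP), mature pollen grains (MPGs) and germinated pollen grains (GPGs). MPGs were shaken from flowering panicles, and GPGs had spent about 10 min in a medium with 20% sucrose at 30 °C. The paper reports a lower purity for BCP than for UNMs and TCP, and not all pollen of the GPG samples had germinated. The sporophytic groups were callus grown from seed for about 1 month with the auxin 2,4-D at 2 mg/L, roots of 2-week seedlings, and leaves. The sample labels give the leaves as flag leaves at grain filling, 110 to 120 days after germination, whereas the methods describe seedling leaves. UNMs, BCP and TCP were released from crushed anthers and then passed through nylon mesh, with a Percoll gradient for BCP, to remove debris of the anther. No mutant or transgene is named for any group, and the methods call the replicates biological.

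14-3-3 proteins are small acidic proteins that work as dimers and bind phosphorylated serine or threonine motifs of many partner proteins, called clients. By binding they change a client's activity, location or stability. In plants the known clients include the plasma membrane proton pump, nitrate reductase, sucrose-phosphate synthase and brassinosteroid transcription factors, and in rice a 14-3-3 protein links the florigen Hd3a to its bZIP partner. A plant genome holds several 14-3-3 genes, whose products can form mixed dimers.

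The values are signal intensities on a linear scale, which the authors had scaled so that the trimmed mean of every array was 500. On the 6 arrays of MPGs and GPGs the hybridisation controls, bacterial and phage transcripts added in a fixed amount, were brighter than on the other 18 arrays (geometric means 14855 to 27682 against 2146 to 7398). The median signal was also higher there, 146.9 to 197.9 against 51.3 to 105.2. The part of this difference in any result was not tested, and each change of a GF14 form into MPGs is therefore given with other scalings of the arrays. The signals of other genes are given as deposited. Over all tested probe sets the median log2 change from TCP to MPGs was 0.55 as deposited and −0.50 after scaling to the hybridisation controls. From sporophytic tissues to pollen these medians were 0.39 and −0.81. The poly-A controls, used for another scaling, differed widely within groups, with geometric means of 1077, 2221 and 14199 on the MPG arrays. After scaling to them 2 of all tested probe sets rose and 1 fell from MPGs to GPGs, against 1427 and 2224 as deposited. A call lost under this scaling can therefore come with a change that is not smaller. The summed signal of 4 pollen markers was at most 395.9 on any sporophytic array and at least 12138 on any pollen array. That of 9 leaf marker probe sets, some of them of the same gene, was 113870 to 150847 in leaf and at most 4215 elsewhere. Of these 9 probe sets 7 had their highest mean in leaf, 1 in MPGs and 1 in GPGs. In leaf itself the means of RBCS1 and 1 OsrbcS probe set were below 100. The summed signal of 7 root markers was 52011 to 54996 in root and at most 2207 elsewhere. Root replicate 3 stood apart in single root markers, with 12698 for the iron transporter IRT1 against 604 and 614 in replicates 1 and 2, 6937 for the nitrate transporter NRT2.3 against 118 and 89.1, and 1026 for the silicon transporter LSI2 against 5656 and 6247. The tests of the GF14 forms that use root are therefore also given without it, while the order of the groups, the correlations and the client values were not recomputed. The summed signal of 10 tapetum and exine genes was 16406 to 18159 in UNMs and at most 2147 in any other group, and RTS alone made up 12273 to 13258 of it in UNMs. Of these 10 genes 4 had their highest mean in UNMs and 5 in MPGs or GPGs, and the UNM means of TDR, EAT1 and CYP703A3 were below 100. The part of tapetum RNA in the UNM values was not tested.

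The GF14 forms did not change together along pollen development. As deposited, the forms with their highest mean in pollen were GF14C in BCP, GF14D in TCP and GF14F in MPGs. GF14A was highest in leaf, GF14B and GF14E in root and GF14G in callus. GF14A and GF14E went down from UNMs to the late stages, GF14B and GF14G went down and came back, and GF14F went up to MPGs in the deposited scaling. A probe set was called, and is said to have risen or fallen, where limma gave an adjusted p under 0.05 and a log2 change of at least 1, on the scale log2(signal + 50), which understates changes of dim probe sets. From UNMs to BCP 2 of 7 forms rose, against 6.11% of the 47589 probe sets tested, and 3 fell, against 8.19%. From BCP to TCP no form was called higher (10.2% of all) and 3 fell (12.9% of all). From TCP to MPGs 3 rose (27.0% of all) and none was called lower (11.9% of all). From MPGs to GPGs 1 rose (3.00% of all) and none was called lower (4.67% of all). Between the mean of the 5 pollen groups and that of the 3 sporophytic tissues all 7 were called, 3 higher in pollen (20.8% of all) and 4 lower (20.7% of all). The median log2 change of the 7 forms in this comparison was −1.48, against 0.39 over all tested probe sets. With 7 members, a single form moves these shares by much, and the forms are not replicates of each other. Whether a lower signal reflects fewer cells of a type or less RNA per cell cannot be told apart in such samples.

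**Figure D1:**
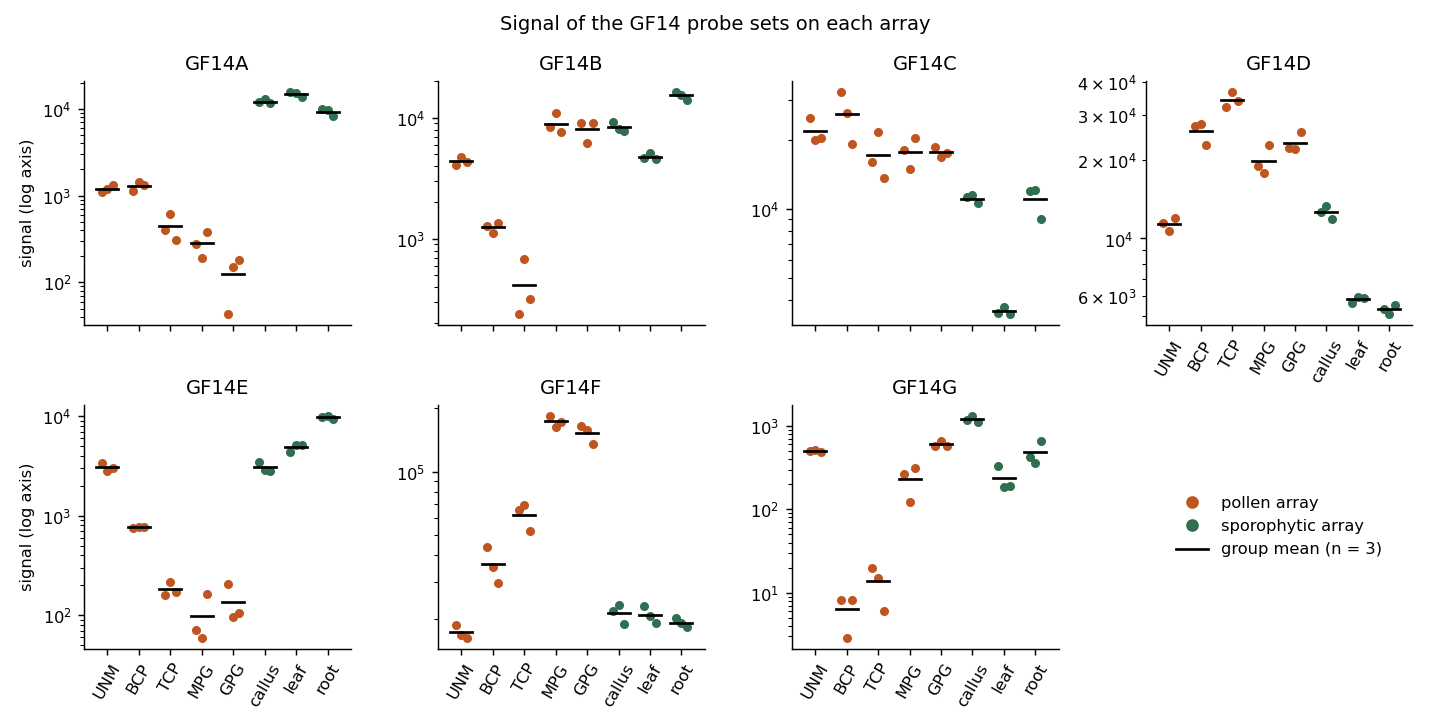
Signal of each GF14 probe set on each of the 24 arrays (points, log axis, arbitrary scanner units after the authors' scaling), with the mean of the 3 arrays of a group as a line; orange points are pollen and green points sporophytic tissues. GF14A and GF14E are lowest in MPGs and GPGs, GF14B is lowest in TCP, and GF14F is highest in MPGs and GPGs.

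GF14F was highest in mature and germinated pollen as deposited. Its signals were 18666, 16827 and 16314 in UNMs, 44056, 35423 and 29529 in BCP, and 66005, 69145 and 52183 in TCP. They were 184150.2, 162534 and 172607 in MPGs and 163662, 157793 and 134861 in GPGs. No 2 of the first 4 groups overlapped, while MPGs and GPGs did. The 9 sporophytic arrays lay between 18391 and 23226, so that BCP and all later pollen arrays were above all of them and 1 of the 3 UNM arrays was inside their range. The mean in UNMs was 9.98% of that in MPGs and the means of callus, leaf and root were 12.3%, 12.1% and 11.1% of it. The log2 change was 1.05 ± 0.20 (SE) from UNMs to BCP (limma adjusted p = 0.000403), 0.79 ± 0.20 from BCP to TCP, which is under the size limit (adjusted p = 0.00371), and 1.48 ± 0.20 from TCP to MPGs (adjusted p = 3.5e-06). The last of these depends on the scaling: it was 0.49 with arrays set to the same median, −0.13 after quantile normalization, −0.28 after scaling to the hybridisation controls and −0.61 after scaling to the poly-A controls, and under none of the 4 was GF14F called. The change of GF14F from BCP to TCP also depends on the scaling, and was slightly negative after quantile normalization. From UNMs to BCP GF14F was not called without BCP replicate 1, at 0.91, nor after scaling to the hybridisation controls, at 0.87, or the poly-A controls, at 1.10 (adjusted p = 0.46). In rice GF14F is known for a role in grain filling.

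GF14D had its highest mean in immature tricellular pollen as deposited. Its signals were 11430.0, 10686 and 12040 in UNMs, 27157, 27620.1 and 22903 in BCP, and 32042, 36684 and 34011 in TCP. They were 19098, 17935 and 22860.3 in MPGs and 22236, 22179.8 and 25754 in GPGs. As deposited, all UNM arrays were below all later pollen arrays, and all TCP arrays were above the arrays of every other group. From BCP to TCP the log2 difference was 0.41 ± 0.18 (limma adjusted p = 0.0953) and was not called. It was negative after quantile normalization and after scaling to the hybridisation controls or the poly-A controls. The root arrays held 5345, 5107 and 5522, the leaf arrays 5635, 5951 and 5891, and the callus arrays 12697, 13360 and 11878. UNMs were thus at the level of callus, with overlapping arrays, and above leaf and root. GF14D rose from UNMs to BCP by 1.18 ± 0.18 (adjusted p = 3.47e-05), and this change lay between 1.00 and 1.38 over the 4 other scalings. It was not called after scaling to the hybridisation controls or the poly-A controls. From TCP to MPGs the log2 difference was −0.78 ± 0.18, under the size limit as deposited, and it passed in each of the 4 other scalings, at −1.20 to −2.86.

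GF14C had the smallest span over pollen of the 7 forms as deposited, with a ratio of 1.51 between its highest and lowest pollen group means. Its signals were 25033, 19941 and 20506 in UNMs, 32404, 26182 and 19299 in BCP, and 16122, 21617 and 13712 in TCP. They were 18049, 14880.4 and 20430.1 in MPGs and 18568, 16818 and 17579 in GPGs. As deposited, neighbouring stages overlapped throughout and no neighbouring pair of pollen stages was called. Callus held 11248, 11468 and 10584, root 11933, 12159 and 9049, and leaf 3528, 3713 and 3473. All 15 pollen arrays were thus above all 9 sporophytic arrays, and leaf was below every other group. In rice GF14C is known as a binding partner of Hd3a and of BZR1. From TCP to MPGs its difference, 0.066 as deposited, was negative in each of the 4 other scalings, at −0.26 to −2.01, and was called with the hybridisation controls and the poly-A controls. From BCP to TCP the difference was −0.59 as deposited, and GF14C was called lower after scaling to the hybridisation controls, at −1.16, and after quantile normalization, at −1.35.

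In the comparison of pollen with sporophytic tissues the log2 difference was 1.37 ± 0.12 for GF14C (adjusted p = 9.52e-10), 1.55 ± 0.091 for GF14D (adjusted p = 1.73e-12) and 1.63 ± 0.10 for GF14F (adjusted p = 4.97e-12). After scaling to the hybridisation controls the same differences were −0.21, −0.020 and 0.050, and with arrays set to the same median 0.69, 0.87 and 0.95, and none of these was called. After quantile normalization only GF14D was called among these 3, at 1.04, with 0.89 for GF14C and 0.049 for GF14F. After scaling to the poly-A controls all 3 were called, at 1.02, 1.20 and 1.27. Whether these 3 forms are higher in pollen thus depends on the scaling. The lower level of the other 4 in pollen had the same direction in all 5 scalings. Without root replicate 3 all 7 forms were still called in this comparison, at −4.51 for GF14A, −1.62 for GF14B, 1.32 for GF14C, 1.56 for GF14D, −3.63 for GF14E, 1.62 for GF14F and −1.40 for GF14G.

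**Figure D2:**
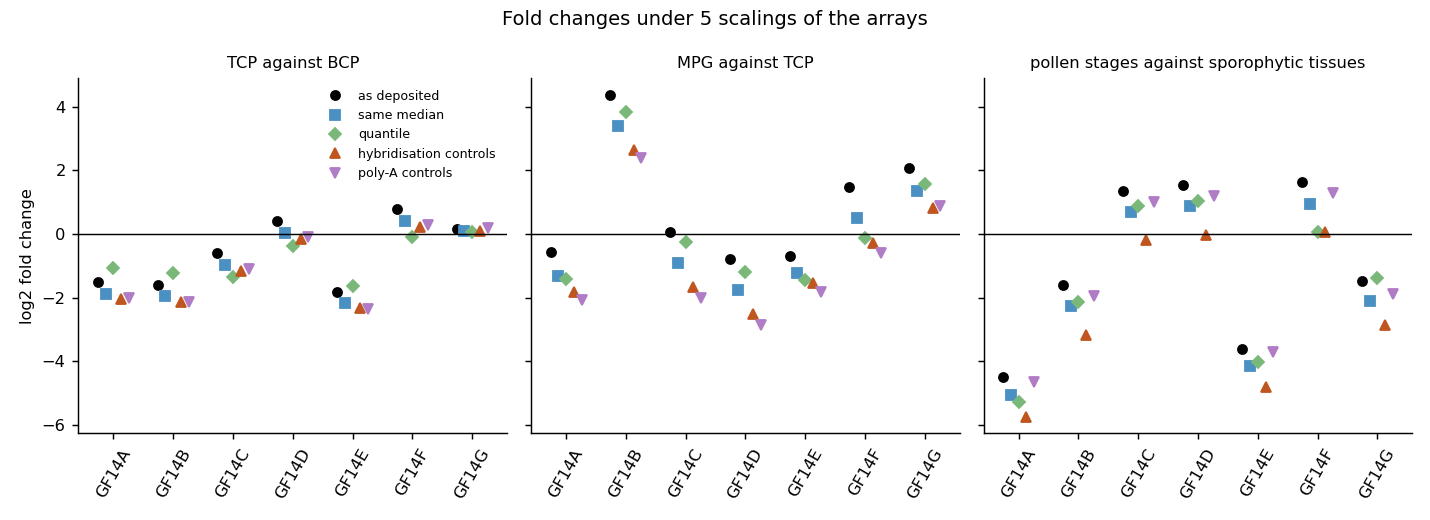
Log2 fold change of each GF14 probe set from BCP to TCP, from TCP to MPGs and between pollen stages and sporophytic tissues, under the deposited values (black circles) and 4 other scalings of the arrays; the vertical axis is the log2(signal + 50) scale. GF14A, GF14B, GF14E and GF14G keep their direction in all 3 panels, while GF14C, GF14D and GF14F cross 0 in at least 1 setting.

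GF14B fell until the immature tricellular stage and then rose. Its signals were 4049, 4719 and 4329.5 in UNMs, 1281, 1111 and 1354 in BCP, and 239, 681 and 320.9 in TCP. They were 8453, 10898 and 7622 in MPGs and 9159.6, 6204 and 9027 in GPGs. No arrays overlapped between UNMs, BCP, TCP and the late stages, and MPGs and GPGs overlapped. Callus held 9241, 8133 and 7800.1, leaf 4690.4, 5082 and 4578, and root 16336, 15552 and 14113. The TCP mean was 2.70% of the root mean and the MPG mean 58.6% of it. The log2 change was −1.77 ± 0.27 from UNMs to BCP (adjusted p = 3.94e-05), −1.60 ± 0.27 from BCP to TCP (adjusted p = 7.31e-05) and 4.38 ± 0.27 from TCP to MPGs (adjusted p = 9.87e-11). The rise into MPGs was called in each of the 4 other scalings, at 2.38 to 3.84, and its range with 1 array left out was 4.10 to 4.77. From UNMs to BCP it was not called after scaling to the poly-A controls, with a log2 change of −1.74 and an adjusted p of 0.0958. Pollen as a whole was lower than the sporophytic tissues by a log2 difference of −1.60 ± 0.14 (adjusted p = 1.08e-09), although the MPG and GPG arrays lay within the range of the 9 sporophytic arrays, 4578 to 16336. In rice GF14B is known for a role in resistance to blast disease in panicles.

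GF14G, a dim probe set, also went down and came back. Its signals were 504, 508 and 484 in UNMs, 8.2, 2.9 and 8.2 in BCP, and 19.9, 15.1 and 6.1 in TCP. They were 268, 120.9 and 311 in MPGs and 569.7, 655 and 573 in GPGs. The BCP and TCP arrays were all below 20, the value of 100 that was asked for in the filter was reached on 18 of 24 arrays, and BCP and TCP overlapped. The log2 change was −3.28 ± 0.27 from UNMs to BCP (adjusted p = 7.46e-09), 2.09 ± 0.27 from TCP to MPGs (adjusted p = 2.02e-06) and 1.26 ± 0.27 from MPGs to GPGs (adjusted p = 0.00445). The fall from UNMs was called in each of the other scalings and offsets, whereas the rise into MPGs was not called with the hybridisation controls (0.81), the poly-A controls (0.88) or an offset of 200 (0.99). The rise into GPGs was not called without MPG replicate 2, the array at 120.9, which left 0.94, nor with the hybridisation controls (0.84), the poly-A controls or an offset of 200 (0.91). Pollen was lower than the sporophytic tissues by −1.48 ± 0.14 (adjusted p = 3.82e-09), which was not called with an offset of 200, at −0.88. Callus was the highest group, at 1186, 1329 and 1114, above root at 426, 361 and 655 and leaf at 330.2, 184 and 191.

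GF14A was a form of the sporophytic tissues in these data. Its signals were 11899, 12912 and 11536 in callus, 15559, 15124 and 13707 in leaf, and 9846, 9719 and 8314 in root. In pollen they were 1109, 1179.8 and 1315.5 in UNMs, 1136, 1449 and 1315 in BCP, and 397, 618 and 310.5 in TCP. They were 276, 192 and 376 in MPGs and 43.1, 149 and 183.5 in GPGs. The highest pollen array was thus below the lowest sporophytic array, 1449 against 8314. UNMs and BCP overlapped, TCP was below both, MPGs overlapped TCP, and GPGs were below MPGs without overlap. The mean in GPGs was 0.847% of the leaf mean. The log2 difference of pollen from sporophytic tissues was −4.49 ± 0.15 (adjusted p = 1.26e-16), and that of TCP from BCP −1.50 ± 0.29 (adjusted p = 0.000419). From TCP to MPGs the difference was −0.56 ± 0.29 and was not called as deposited, whereas the 4 other scalings called it, at −1.32 to −2.07. From MPGs to GPGs the difference was −0.99 ± 0.29 (adjusted p = 0.0372), just under the size limit. It was called with an offset of 16 (−1.20), without MPG replicate 2 (−1.19), without GPG replicate 2 (−1.13) and without GPG replicate 3 (−1.24). It shrank to −0.58 without GPG replicate 1, the array at 43.1, and was not called there.

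GF14E fell at each of the first 2 steps. Its signals were 3377, 2803 and 3009 in UNMs, 749, 764 and 776 in BCP, and 159, 215 and 171 in TCP. They were 71.7, 59.7 and 162.5 in MPGs and 207.9, 95.8 and 106 in GPGs. UNMs, BCP and TCP did not overlap, while TCP, MPGs and GPGs did. Callus held 3429, 2889 and 2844, at the level of UNMs, leaf 4399, 5176 and 5181, and root 9779, 10127 and 9347. The log2 change was −1.93 ± 0.25 from UNMs to BCP (adjusted p = 4.86e-06) and −1.82 ± 0.25 from BCP to TCP (adjusted p = 5.82e-06), and both were called in all 5 scalings. From TCP to MPGs the difference was −0.70 ± 0.25, under the size limit as deposited and called in the 4 other scalings, at −1.23 to −1.83. Pollen was lower than the sporophytic tissues by −3.62 ± 0.13 (adjusted p = 2.48e-16). The summed signal of the tapetum and exine genes, most of it from RTS, also went from at least 16406 in UNMs to at most 2147 in BCP, although the means of CYP703A3 and EAT1 went from 61.3 to 151 and from 31.7 to 56.1. The sum of 9 genes of dividing cells went from 23633 to 26644 in UNMs to 4100.3 to 5282 in BCP. Their part in the falls of GF14B, GF14E and GF14G from UNMs was not tested. In rice the form named GF14E is known as a negative factor of cell death and disease resistance.

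**Figure D3:**
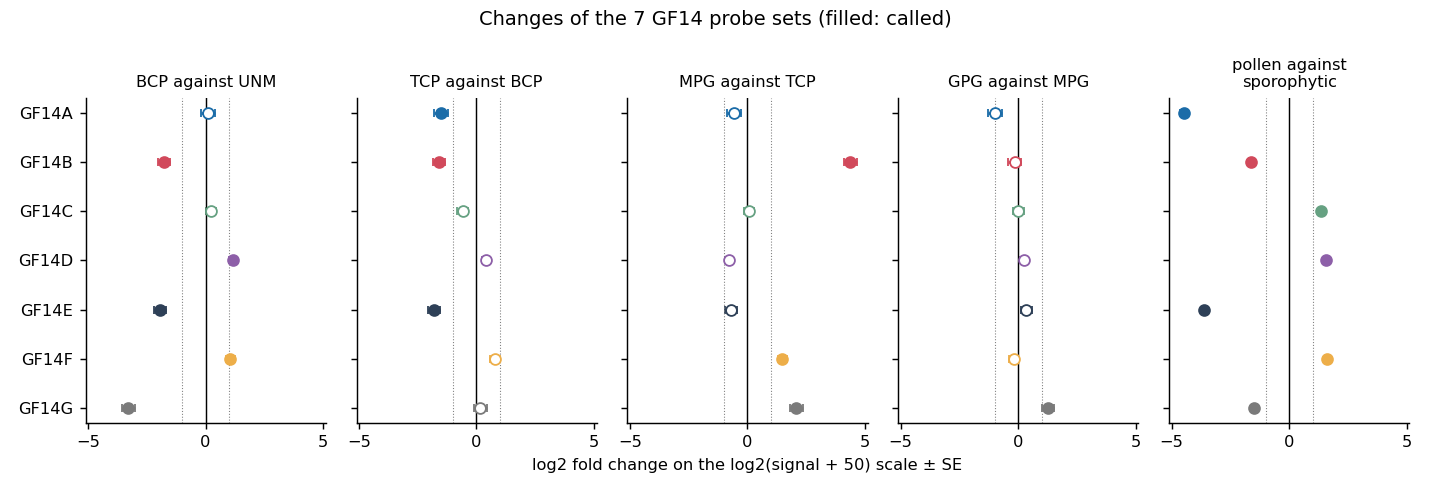
Log2 fold change with its standard error for each of the 7 GF14 probe sets in 4 steps of pollen development and between pollen and sporophytic tissues; filled points were called, open points were not, and dotted lines mark a log2 change of 1. GF14B has the longest excursion, from −1.60 at the TCP step to 4.38 at the MPG step.

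Within the sporophytic tissues the forms also differed. Between leaf and root no form was called higher in leaf (11.6% of all) and 2 were lower (15.4% of all), GF14B by −1.67 ± 0.27 (adjusted p = 3.11e-05) and GF14C by −1.60 ± 0.22 (adjusted p = 6.17e-06). GF14E, at −0.98, was just under the size limit and passed it without leaf replicate 2, without leaf replicate 3 or without root replicate 3, at −1.01 to −1.02, and in each of the 4 other scalings. GF14G, at −0.90, passed without leaf replicate 1, at −1.12, and without root replicate 2, at −1.06. Without root replicate 3 the difference of GF14G shrank to −0.67 (limma adjusted p = 0.0791). Between callus and root 2 forms were higher in callus (10.5% of all), GF14D by 1.24 ± 0.18 and GF14G by 1.28 ± 0.27, and GF14E was lower (10.9% of all) by −1.66 ± 0.25. Between callus and leaf 3 forms were higher in callus (17.0% of all), GF14C by 1.62 ± 0.22, GF14D by 1.11 ± 0.18 and GF14G by 2.18 ± 0.27, and none was called lower (13.4% of all). After scaling to the poly-A controls neither GF14D nor GF14E was called between callus and root, at 1.51 and −1.40, although the difference of GF14D was larger than as deposited. Without root replicate 3 the same forms were called between leaf and root, with GF14E added, at −1.73 for GF14B and −1.74 for GF14C, and between callus and root, at 1.27 for GF14D, 1.51 for GF14G and −1.69 for GF14E. These 3 comparisons share arrays. GF14F was not called between any pair of these 3 tissues, with differences of 0.031 to 0.15 as deposited.

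Placed in the order of their means, the 8 groups of each form make 7 neighbouring pairs. Of the 49 pairs over the 7 forms 21 passed an adjusted p of 0.05 without a size limit, against 13.3% of such pairs over all probe sets tested. That share includes dim probe sets and was not matched to the brightness of the forms. For GF14F the order was MPGs, GPGs, TCP, BCP, callus, leaf, root and UNMs, in which MPGs and GPGs did not pass, nor did any neighbours among callus, leaf, root and UNMs. For GF14B it was root, MPGs, callus, GPGs, leaf, UNMs, BCP and TCP, in which MPGs, callus and GPGs did not pass as neighbours, nor did leaf and UNMs. For GF14D it was TCP, BCP, GPGs, MPGs, callus, UNMs, leaf and root, with steps that passed only between MPGs and callus and between UNMs and leaf. For GF14A it was leaf, callus, root, BCP, UNMs, TCP, MPGs and GPGs, with the largest step, 2.79, between root and BCP. For GF14E the steps from GPGs to MPGs and from TCP to GPGs did not pass, nor did that from UNMs to callus.

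**Figure D4:**
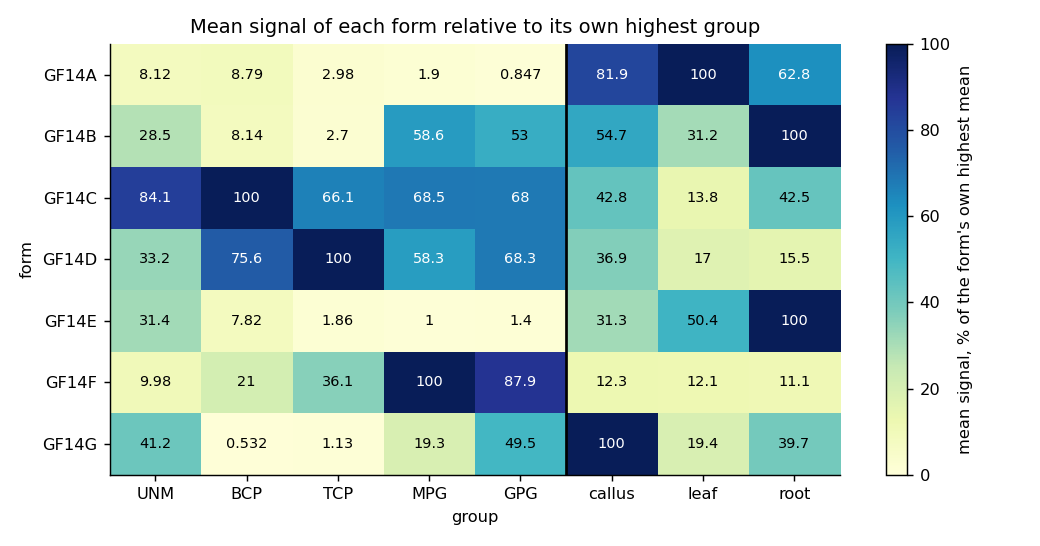
Mean signal of each form in each group (n = 3 arrays) as a percentage of that form's own highest group mean; the colour runs from 0 to 100% and the vertical line separates pollen from sporophytic tissues. Rows are not comparable in level, and each row shows where its own form is high, such as MPGs for GF14F and root for GF14B.

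A ratio of 2 probe sets on 1 array is little affected by a factor that scales the whole array. A change of this ratio between groups shows unequal change of the forms. Quantile normalization is not such a factor, and the ratios were computed on the deposited signals only. The ratio itself has no meaning as a relative amount, because probe sets differ in brightness. The log2 ratio of GF14B to GF14F was −2.19 to −1.82 in UNMs, −5.05 to −4.40 in BCP, −7.84 to −6.57 in TCP and −4.49 to −3.89 in MPGs. It changed by −2.82 ± 0.23 (SE), −2.39 ± 0.42 and 2.91 ± 0.41 at these steps, with no overlap, and by 0.040 ± 0.29 from MPGs to GPGs. GF14B therefore fell relative to GF14F up to TCP and regained ground in MPGs on every array.

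The ratio of GF14D to GF14F stayed within overlapping ranges from UNMs to TCP, at −1.04 to −0.36, and then changed by −2.26 ± 0.16 to lie between −3.27 and −2.91 in MPGs. GF14F thus gained on GF14D between TCP and MPGs under any factor that scales a whole array, while the direction of GF14F itself was not settled there. The size of this gain was not computed after quantile normalization, in which it can be smaller. The ratio of GF14C to GF14F went down at each step to MPGs, by −0.83 ± 0.077, −1.38 ± 0.12 and −1.41 ± 0.15, without overlap. From 0.24 to 0.42 in UNMs it reached −3.45 to −3.08 in MPGs. After quantile normalization the log2 changes of GF14C and GF14F from TCP to MPGs were much closer to each other. The ratio of GF14C to GF14D changed by −0.95 ± 0.18 and −0.996 ± 0.22 up to TCP and by 0.85 ± 0.17 from TCP to MPGs. No test was run on these ratios, and the largest effect of leaving out the offset of 50 on any change among GF14B, GF14C, GF14D and GF14F was 0.19.

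**Figure D5:**
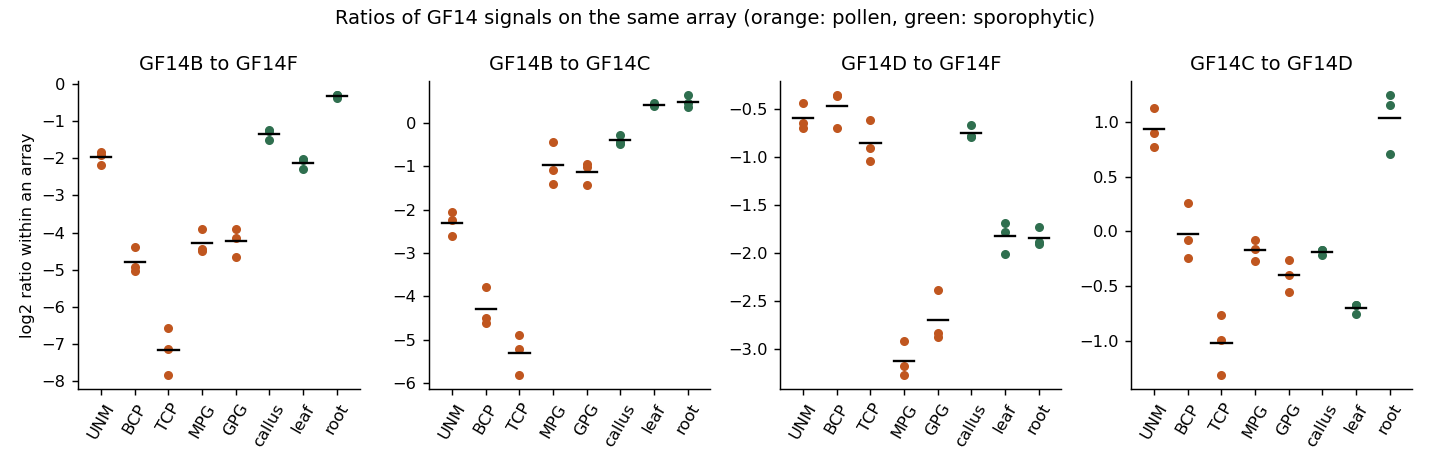
Log2 ratio of the signals (each plus 50) of 2 GF14 probe sets on the same array, for 4 pairs of forms; points are arrays and lines the mean of 3 arrays, orange for pollen and green for sporophytic tissues. Only changes along the horizontal axis can be read, such as the low point of GF14B to GF14F in TCP and the drop of GF14D to GF14F into MPGs.

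Over the 8 group means of log2 signal, GF14A and GF14E had r = 0.91 and GF14B and GF14G r = 0.84, whereas GF14E and GF14F had r = −0.93. These values describe 8 points that share the arrays and their scaling. After scaling to the hybridisation controls they were 0.95, 0.89 and −0.37, so that the first 2 pairs kept a high value and the third did not. Among the 3 forms that were higher in pollen as deposited, r in the deposited and the control-scaled values was 0.71 and 0.82 for GF14C and GF14D, 0.67 and 0.34 for GF14D and GF14F, and 0.37 and 0.0093 for GF14C and GF14F. Over the 5 pollen groups alone GF14C and GF14D had −0.31 as deposited and 0.87 with the controls.

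The named genes most like each form were taken as the 3 with the highest Pearson r over the 8 group means, and such r is a description. GF14A was most like SPL11 (r = 0.99), RMSOD1 (0.99) and ARF2 (0.99). GF14E was most like PAL (0.99), GLB (0.99) and RiSC (0.98). GF14B was most like the histone gene H2B.6 (0.98), LOL1 (0.95) and OsC3H5 (0.94), and H2B.6 also had its lowest mean in TCP, 901, and 10326 in MPGs. GF14G was most like TK (0.92), BG1 (0.92) and OsC3H5 (0.91). GF14C was most like ISW2-like (0.98), the hexokinase HXK2 (0.95) and AGO2 (0.95), an Argonaute protein of RNA silencing. GF14D was most like the bZIP factor RF2a (0.95), EXO-1 (0.95) and GNA1 (0.94). GF14F was most like SS2 (0.99), the kinase OsWNK3 (0.99) and the metal transporter NRAMP6 (0.99), whose mean went from 889.6 in UNMs to 48384 in MPGs and 67456 in GPGs. SS2 and OsWNK3 were dim, with means of at most 83.3 and 63.8 in UNMs and the sporophytic tissues. After scaling to the hybridisation controls GF14B and GF14E kept 2 of their 3 genes and each other form kept 1. With Spearman's rho in place of Pearson's r only GF14A and GF14C kept 1 of their 3 genes and the other 5 forms kept none. The lists are therefore loose descriptions.

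The study's methods call a probe set pollen-preferential by a ratio to the sporophytic tissues and a Z score, and here the ratio was read as the median in a stage over the highest single sporophytic array, which had to be at least 2. GF14C (in BCP), GF14D (in BCP and TCP) and GF14F (in TCP, MPGs and GPGs) passed, 3 of 7 against 43.9% of all probe sets. The median of GF14F was 2.84, 7.43 and 6.79 times its highest sporophytic array in TCP, MPGs and GPGs, that of GF14D 2.03 and 2.55 times in BCP and TCP, and that of GF14C 2.15 times in BCP. GF14C did not pass without BCP replicate 1. No form was enriched in 1 stage above all 21 other arrays (3.85% of all probe sets), and the closest was GF14D in TCP, at 1.23 times the highest other array. After scaling to the hybridisation controls none of the 7 passed the first rule.

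Of the clients of 14-3-3 proteins 11 probe sets of 10 genes could be matched by name, and all passed the filter. They are nitrate reductase, sucrose-phosphate synthases, the florigen Hd3a, BZR1, the two-pore potassium channels TPKA and TPKB and 2 ACC synthases, enzymes of ethylene synthesis. From UNMs to BCP 2 of the 11 rose (6.11% of all probe sets tested) and 1 fell (8.19%), and from BCP to TCP 1 rose (10.2%). From TCP to MPGs 3 rose, near the share over all probe sets, 27.0%, and from MPGs to GPGs none was called. Between pollen and sporophytic tissues 2 were higher, near the 20.8% of all, and 5 lower, against 20.7%. Sucrose-phosphate synthase SPS6 had a mean signal of 995 in UNMs and 2395 in BCP, rising to 7456 at the immature tricellular stage, with 25500.5 in MPGs and 16099.8 after germination. Its means in the sporophytic tissues were 1393 to 2674. It rose by 1.76 ± 0.18 from TCP to MPGs (adjusted p = 1.39e-07). The related SPS4 fell by 2.48 ± 0.24 from UNMs to BCP (adjusted p = 1.38e-07). The 2 probe sets of nitrate reductase NIA1 disagreed, with differences of pollen from sporophytic tissues of −5.06 ± 0.41 and 1.22 ± 0.17, and for the first of them root replicate 3 stood at 9227 against 327 and 423. BZR1, a factor of brassinosteroid response, was lower in pollen by −2.07 ± 0.21 (adjusted p = 1.41e-08), TPKB by −1.90 ± 0.21 (adjusted p = 4.13e-08) and the ACC synthase ACS2 by −1.71 ± 0.23 (adjusted p = 1.41e-06). Hd3a had means of 226 in leaf and at most 45.2 elsewhere, with a pollen difference of −0.68. The client values were not refitted with other scalings of the arrays.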

How the data were processed

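The analysis used 24 rice arrays in 8 groups of 3, grouped by their sample labels. Values deposited are linear signal intensities; the authors obtained them with GCOS and the MAS5 method, with a scaling target of 500 for each array. The 2% trimmed mean of each array was 499.9 to 500. Of 57381 probe sets 123 controls were left out, and 47589 reached 100 on at least 3 arrays. The log2(signal + 50) values of all 24 arrays were fitted with limma 3.58.1 in R 4.3.3 with 1 mean per group, and p-values were adjusted by the Benjamini-Hochberg method over all probe sets tested. The number of arrays, the scaling of the arrays and the low signal of some probe sets limit the precision.

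Names come from the RefSeq table of rice genes, through the array's annotation. Of the probe sets 22436 match 1 gene and 95 several, and 3193 carry an informative symbol or synonym. Named were all members, the 3 named genes most like each, and for clients the one with the largest change per group, plus SPS6, TPKA and the second NIA1 probe set, chosen after their values were seen. Members and lists were chosen with earlier results of these data known. Plasma membrane proton pumps could not be matched by name. Sequence comparisons of the proteins and promoters were not run.

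The study's limits on Z were 3.19 and 3.75, and the ratio was read as taken to the highest single array, since its equation was not in the text used. Alternatives were 2 offsets, 2 filters, 4 scalings, a fit on the compared groups only, the replicate number as a block, and each array left out. Only the limma fit was run on simulated data, for BCP against UNMs and without differences in array scaling. Python 3.11.15 with pandas 2.3.3 and numpy 2.4.6 did the rest, and matplotlib 3.10.9 drew the plots.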

Additional observations from a re-analysis of the deposited data

How the results depend on the processing

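Of 56 member results, 7 forms in 8 comparisons, 27 were called. Under the 10 alternatives other than leaving out an array, 479 of 552 values kept direction and call and 27 changed sign, in 16 results. All of these 27 came from the 4 scalings of the arrays, and the cause was not tested.

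The count of forms called went from 5 between BCP and UNMs to 3 with the hybridisation controls and 2 with the poly-A controls. For MPGs against TCP it went from 3 to 5 with the hybridisation controls, the poly-A controls, the same median and quantile normalization, with 1, 1, 2 and 2 of them higher in MPGs. For GPGs against MPGs it went from 1 to 2 with an offset of 16 and to 0 with an offset of 200, the hybridisation controls, the poly-A controls and only the 2 groups compared, a fit in which limma called 0 probe sets of all tested. For pollen against sporophytic tissues it went from 7 to 4, all lower in pollen, with the hybridisation controls and the same median. For leaf against root it went from 2 to 4 with the hybridisation controls, and for callus against root from 3 to 1 with the poly-A controls. The pollen-preferential count of 3 went to 0 with the hybridisation controls and quantile normalization and to 1 with the same median.

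Signs changed as follows. With the hybridisation controls the log2 values were −0.068 for GF14A in BCP against UNMs, 0.11 for GF14A in callus against leaf, −0.21 for GF14C and −0.020 for GF14D in pollen against sporophytic tissues, −0.14 for GF14C in GPGs against MPGs, −1.68 for GF14C and −0.28 for GF14F in MPGs against TCP, −0.16 for GF14D in TCP against BCP, and −0.29 for GF14D and −0.30 for GF14F in leaf against root. With the poly-A controls they were 0.55 for GF14A and 0.15 for GF14E in callus against leaf, 0.32 for GF14B and 0.31 for GF14F in GPGs against MPGs, −2.01 for GF14C and −0.61 for GF14F in MPGs against TCP, −0.11 for GF14D in TCP against BCP, and −0.44 for GF14D and −0.45 for GF14F in leaf against root. With quantile normalization they were −0.26 for GF14C and −0.13 for GF14F in MPGs against TCP, −0.14 for GF14C and −0.094 for GF14F in callus against root, −0.38 for GF14D and −0.091 for GF14F in TCP against BCP, and −0.31 for GF14F in leaf against root. With the same median the value was −0.91 for GF14C in MPGs against TCP.

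With 1 array left out, 443 of 462 values kept direction and call. The ranges were 1 to 2 for the count in GPGs against MPGs, −0.26 to 0.033 for GF14B and −0.12 to 0.11 for GF14C in that step, −0.082 to 0.25 for GF14C in MPGs against TCP, −0.12 to 0.094 for GF14C in callus against root, and −0.033 to 0.11 for GF14F in callus against leaf. The replicate block changed no call, with 5 forms called in BCP against UNMs and 3 in MPGs against TCP. Arrays that share a number had deviations with r of −0.054 to 0.18 over 84 pairs, with a median of 0.033 and 7 over 0.1. Arrays of different number had a median of −0.017 over 168 pairs, with 1 over 0.1. The main fit did not pair arrays by number, and whether the numbers mark a shared batch was not tested. GF14G in TCP against BCP did not reach the filter in the fit of these 2 groups only. Signals near or below 100, as for GF14G in BCP and TCP and GF14E in MPGs, limit what can be said of their size.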
